A study of Homo sapiens with 12 samples.

Results

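The comparison described here set CL1-5 against CL1-0 while both were under an electric field, gene by gene. Its members are 6 of the 12 arrays of the study, 3 of each line, taken by their labels, and the other 6 arrays hold the same lines without the field. Both are established lines of human lung adenocarcinoma that share an origin, CL1-5 being the more invasive subline. Cells of both lines were grown overnight in a microfluidic chip, then exposed without serum for 2 h to a direct-current field of 300 mV/mm (0 mV/mm in the arrays without the field), taken off with trypsin, and their total RNA was hybridised to Affymetrix arrays. Each line is a single culture lineage, so a difference here is one between these lines and not between invasive and non-invasive tumours in general. The labels call the arrays biological replicates but do not say how far back the cultures were separate, so the p-values measure the spread between these arrays.

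Direct-current fields of physiological strength steer the migration of many cells, and membrane receptors, ion channels and adhesion proteins take part in that steering. Invasion draws on proteases that cut the matrix, on integrins that grip it, and on the loss of cell-to-cell contacts.

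Levels are log2 of the deposited signal, with values under 1 set to 1. The median of the 6 arrays lay between 5.93 and 6.18 on this scale, and signals under it are close to background. Differences are CL1-5 minus CL1-0 in log2 units, from 3 arrays in each line, and are given with their standard errors (SE) from limma. The spread behind an SE was estimated from all arrays of the study, those without the field included. An SE is therefore not the spread of the arrays under the field alone. A gene was called at an adjusted p under 0.05 over 13882 genes. For some genes with a line under its arrays' median, a lower bound of the fold is given as "at least", from values raised to that median. A missing bound does not mean that both lines were above the median. SERPINB1, SPARC, TNC and OAS1 are given below by their difference, and their bounds in log2 units were 4.96, 4.54, 3.08 and 2.97. That of CCL2 was 2.52-fold. The arrays carry no count of molecules, and their number limits the precision.

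Replicate 1 of each line showed no poly-A control signal from dap, which is spiked in during labelling (signal 13.3 and 8.59, against 1944 to 2333 on replicates 2 and 3). Replicate 1 of CL1-5 stood apart further: its ratio of 3' to 5' signal of beta-actin, a measure of RNA quality, was 1.54 against 1.23 to 1.32 on the other 5, its highest signal was 114821 against 51435 to 63051, and 45 of its values were under 1 against 227 to 415. KRT8 and KRT18, which form the filaments of simple epithelia, were well above the median in both lines. They were lowest on replicate 1 of CL1-0, KRT18 at 11.75 there and from 13.88 to 14.82 on the others. The lung lineage factor NKX2-1 lay at 7.56 ± 0.54 in the CL1-0 cells and 6.87 ± 0.21 in those of CL1-5 (SD, n = 3). Of the surfactant genes, SFTPB averaged 7.28 in CL1-0 and 6.73 in CL1-5, SFTPC 6.25 and 4.43, and SFTPD was under the median on all 6 arrays, so alveolar markers were low or absent. KRT18 differed by 0.90 ± 0.68 (adjusted p = 0.414), and by −0.19 on replicates 2 and 3 alone. In cultures measured in bulk, fewer cells of a type and less RNA per cell cannot be told apart.

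Of 13882 genes, 1362 were higher in CL1-5 (9.81%) and 1337 lower (9.63%), in all 19.4%. More than 2-fold differences were found for 1072 of the higher and 1006 of the lower genes, and more than 16-fold for 188 and 106. For 4970 genes (35.8%) the lines' arrays were apart, all CL1-5 arrays lying above in 2334 (16.8%) and below in 2636 (19%). Without replicate 1 of CL1-5 2347 genes were called, 1182 higher and 1165 lower. The count of lower genes depended more on CL1-0, falling to 872 without its replicate 2 and to 808 without its replicate 3. With the replicate number as a block 5289 genes were called, 2408 higher (17.3%) and 2881 lower (20.8%). Without replicate 1 of CL1-5 and with that block, a setting chosen after the data were seen, it was 4926.

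The largest differences were of genes that one line expressed strongly and the other at background. PAEP, which encodes the secreted lipocalin glycodelin, was at 2.99, 2.02 and 2.38 on the CL1-0 arrays and at 14.66, 13.88 and 14.47 on the CL1-5 arrays. All 3 CL1-0 arrays were at background and all 3 CL1-5 arrays far above it, a difference of 11.87 ± 0.48 (adjusted p = 6.97e-08) or at least 314-fold. ALDH1A1, which oxidises retinal to retinoic acid, was the reverse, at 14.09, 13.84 and 13.96 in CL1-0 against 3.49, 1.78 and 1.44 in CL1-5. The difference was −11.73 ± 0.44 (adjusted p = 4.57e-08), or no less than 243-fold. Of the called genes, 237 of those higher had every CL1-0 array under its median and 204 of those lower every CL1-5 array. Among the 10223 genes above the median on all 6 arrays 919 were higher and 992 lower, and the largest difference there was that of SPP1, at −6.64.

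**Figure D1:**
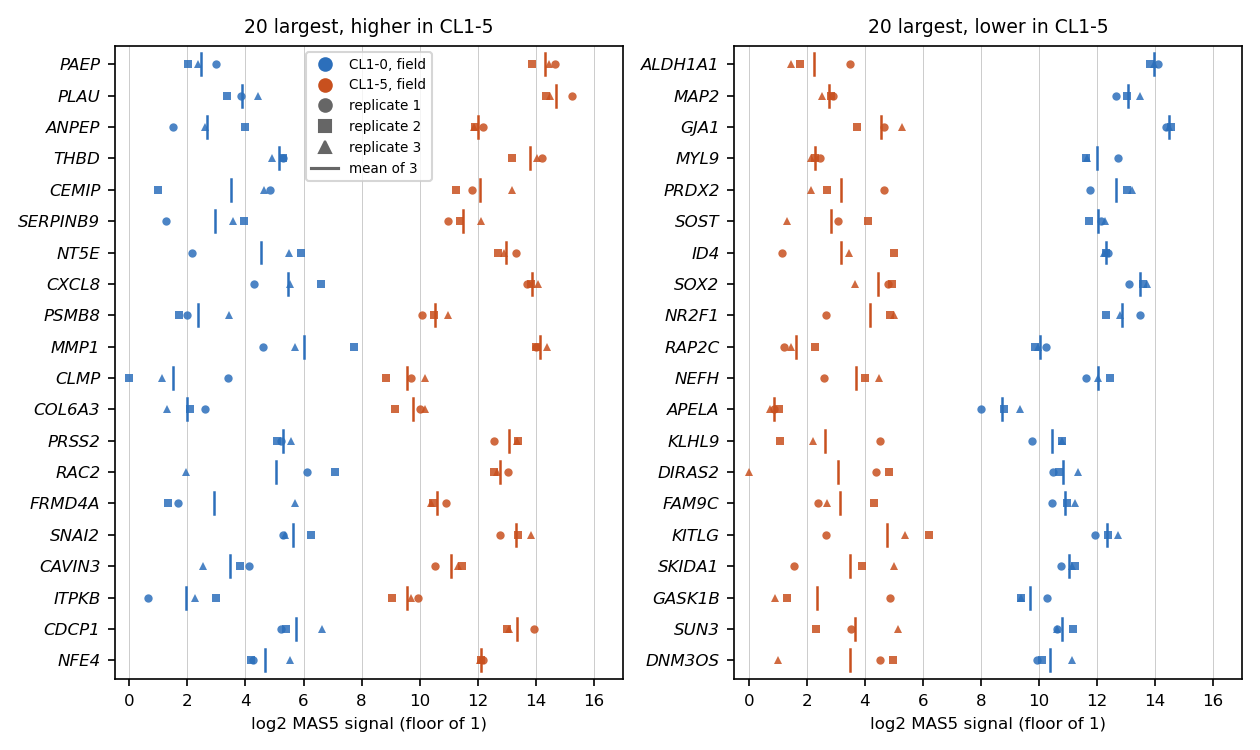
Log2 signal on each of the 6 arrays under the field for the 20 genes with the largest called difference in each direction (Y-linked genes left out); blue is CL1-0, orange CL1-5, marker shape the replicate and the bar the mean of 3. The arrays of the lines do not overlap for any of these 40 genes, from PAEP at 11.87 and ALDH1A1 at −11.73 inward.

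Of the proteases that cut the matrix, PLAU and MMP1 were among the 20 genes with the largest difference upward. Of 27 genes of the plasminogen and matrix metalloproteinase system 25 were on the array and 17 passed the filter on low signals, of which 10 were higher and 0 lower, with a median difference of 1.72 against −0.08 over all genes. A gene that passed the filter through 1 line alone had to differ, so such counts are read against the shares of all genes above. PLAU, the urokinase plasminogen activator, was at 3.83, 3.38 and 4.42 in CL1-0 against 15.25, 14.37 and 14.51 in CL1-5. Its receptor PLAUR was at 8.86, 9.33 and 8.71 against 13.88, 13.34 and 13.68, so that here both lines were above background and CL1-5 lay 4.67 ± 0.28 higher (adjusted p = 9.79e-07). PLAT, the tissue activator, was at 0, 5.01 and 4.53 in CL1-0 against 10.09, 9.88 and 10.09 in CL1-5, at least 15.7-fold higher. The collagenase MMP1 was at 4.59, 7.74 and 5.71 against 14.02, 14.02 and 14.38, at least 180-fold higher. Of the inhibitors, TIMP1, which blocks most metalloproteinases, was higher by 4.97 ± 0.68 (adjusted p = 0.000331) and TIMP3, which stays bound to the matrix, by 3.81 ± 0.48 (adjusted p = 0.000177).

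Peptidases and nucleotidases that sit on the cell surface had 6 of 11 tested members higher and 0 lower, and 1 lower with the replicate block. Under a stricter filter on low signals 5 were tested and 3 of them were higher. ANPEP (aminopeptidase N) was at 1.49, 3.97 and 2.59 in CL1-0 against 12.2, 11.91 and 11.89 in CL1-5. NT5E (CD73), which makes adenosine from AMP, was at 2.17, 5.93 and 5.5 against 13.33, 12.72 and 12.91, at least 123-fold higher. MME (neprilysin) and CD38, which hydrolyses NAD, reached only 7.72 ± 0.56 and 7.11 ± 0.25 in CL1-5, so their bounds were at least 3.2-fold and 2.09-fold. Of 14 tested serpins and membrane serine proteases 7 were higher and 2 lower. SERPINB1, an inhibitor of neutrophil proteases, was higher by 7.45 ± 0.59 (adjusted p = 5.81e-06), and PRSS3, a trypsinogen, by 6.98 ± 0.43 (adjusted p = 1e-06). Trypsinogen genes are near-identical copies, so the probe sets of PRSS3 and PRSS2 (higher by 7.79 ± 0.44) may read each other's transcripts. The 2 lower members were inhibitors. SPINT2, which blocks matriptase and hepsin, was at 9.49, 10.17 and 10.21 in CL1-0 against 3.89, 4.22 and 4.71 in CL1-5, at least 15.1-fold lower. SERPING1, the inhibitor of complement C1, was at least 4.44-fold lower. CDCP1, a transmembrane protein cut by such proteases, was at 5.21, 5.4 and 6.65 against 13.94, 13.02 and 13.09, and CEMIP, which degrades hyaluronan, was at least 65.4-fold higher in CL1-5.

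Regulators of the epithelial to mesenchymal transition did not all move one way. Of 24 tested genes 10 were higher and 3 lower. SNAI2, a repressor of epithelial genes, was at 5.31, 6.26 and 5.37 in CL1-0 against 12.78, 13.39 and 13.83 in CL1-5, at least 145-fold higher, and TCF4, another repressor of E-cadherin, was higher by 4.00 ± 0.37 (adjusted p = 1.63e-05). TWIST1, a factor of the same kind, ran the opposite way, at 10.91, 11.23 and 11.47 against 5.68, 7.74 and 7.2, a difference of −4.33 ± 0.59 (adjusted p = 0.00033). ZEB2 was lower by −3.89 and ZEB1 higher by 1.34. VIM, the intermediate filament of mesenchymal cells, was far above the median in both lines, at 15.29, 14.79 and 14.8 against 16.31, 15.11 and 15.1. It differed by 0.55 ± 0.37 (adjusted p = 0.352), by 0.55 with the replicate block (adjusted p = 0.00623), and by 1.38 when its probe sets were averaged (adjusted p = 0.00921). LOX, which cross-links collagen, and SPARC, a collagen-binding protein, were higher by 5.26 ± 0.42 and 6.72 ± 0.62 (adjusted p = 5.81e-06 and 1.74e-05).

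Genes of epithelial contacts split. Of 30 tested, 5 were higher and 7 lower, with a median of −0.23. The 7 became 3 without replicate 3 of CL1-0 and 4 without CL1-0 replicate 1 or 2 or CL1-5 replicate 2 or 3, 4 when probe sets were averaged, and the 5 became 3 without replicate 2 of CL1-0 or replicate 1 or 2 of CL1-5. EPCAM, an epithelial adhesion molecule, was at 8.02, 9.73 and 10.1 in CL1-0 against 4.02, 5.47 and 5.09 in CL1-5, at least 9.46-fold lower. CDH1 (E-cadherin) was at 8.05, 9.94 and 10.56 against 6.47, 4.68 and 6.55, a difference of −3.61 ± 0.98 (adjusted p = 0.0226). The call was lost when replicate 2 of CL1-0 (adjusted p = 0.0772), its replicate 3 (0.0922) or replicate 2 of CL1-5 (0.0839) was left out. JUP (plakoglobin), which ties cadherins to the cytoskeleton, was lower by −1.99 ± 0.33 (adjusted p = 0.00143). DSP (desmoplakin), the desmosome's link to keratin filaments, was higher, at 9.59, 10.17 and 9.99 against 13.32, 12.9 and 13.53, and NECTIN3 by 2.19 ± 0.49 (adjusted p = 0.00794). None of 8 tested keratins was called, with or without the replicate block.

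Integrins, receptors for the matrix, were called mostly higher, and genes of the matrix itself in both directions. Of 20 tested integrin subunits 7 were higher, among them ITGA2, a collagen receptor subunit, at 5.58, 7.99 and 6.86 in CL1-0 against 11.57, 11.85 and 12.35 in CL1-5. ITGB3, the vitronectin receptor's beta chain, was higher by 5.01 ± 0.44 (adjusted p = 1.29e-05), and the laminin receptor subunits ITGA3 and ITGA6 by 3.08 ± 0.65 and 2.69 ± 0.36 (adjusted p = 0.00567 and 0.000287). ITGAV and ITGA7 were the 2 lower subunits, at −2.29 and −2.68. As a share of the 20 they are near the 9.63% of all genes called lower, against 9.81% called higher. Only 1 of them was called without CL1-0 replicate 1 or 3 or CL1-5 replicate 3. Of 27 laminin and collagen genes 8 were higher and 5 lower, and 8 lower with the replicate block. COL6A3 was at 2.6, 2.1 and 1.28 against 10.03, 9.14 and 10.2, and the laminin chain LAMB3 at 4.33, 7.47 and 6.4 against 13.49, 12.23 and 12.34. The fibrillar collagen COL5A2 was lower, at 10.29, 9.45 and 9.51 against 6.34, 5.07 and 4.93.

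Of 27 matricellular and secreted matrix genes 12 were higher and 3 lower. Osteopontin (SPP1), a secreted ligand of integrins and CD44, was at 15.48, 15.28 and 15.26 in CL1-0 against 8.2, 8.59 and 9.31 in CL1-5. No other gene above the median on all 6 arrays differed more (adjusted p = 2.4e-07). CD44, its receptor, ran the other way, at 4.37, 7.94 and 6.59 against 12.09, 13.11 and 12.91, at least 56.9-fold higher. TNC (tenascin C) and TGFBI were higher by 5.33 ± 0.70 and 4.97 ± 0.69 (adjusted p = 0.000253 and 0.000348), and IGFBP4, which binds insulin-like growth factors, by 6.32 ± 0.79 (adjusted p = 0.00017). Among 7 tested connexins and their relatives, the channel proteins of gap junctions, 2 were higher and 1 lower. GJA1, a widespread connexin, was at 14.37, 14.57 and 14.5 against 4.66, 3.74 and 5.27, at least 347-fold lower in CL1-5, and GJB2, an epithelial connexin, at 4.31, 4.58 and 3.9 against 8.47, 10.18 and 9.67, at least 10.5-fold higher. GJC1, another connexin, was higher by 1.83 ± 0.25 (adjusted p = 0.000311).

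Among genes of the contractile machinery, MYL9, the regulatory light chain of non-muscle myosin, was at 12.72, 11.61 and 11.65 in CL1-0 against 2.44, 2.28 and 2.15 in CL1-5, at least 62-fold lower. The filopodial motor MYO10 ran the other way, higher by 4.98 ± 0.39 (adjusted p = 5.81e-06).

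**Figure D2:**
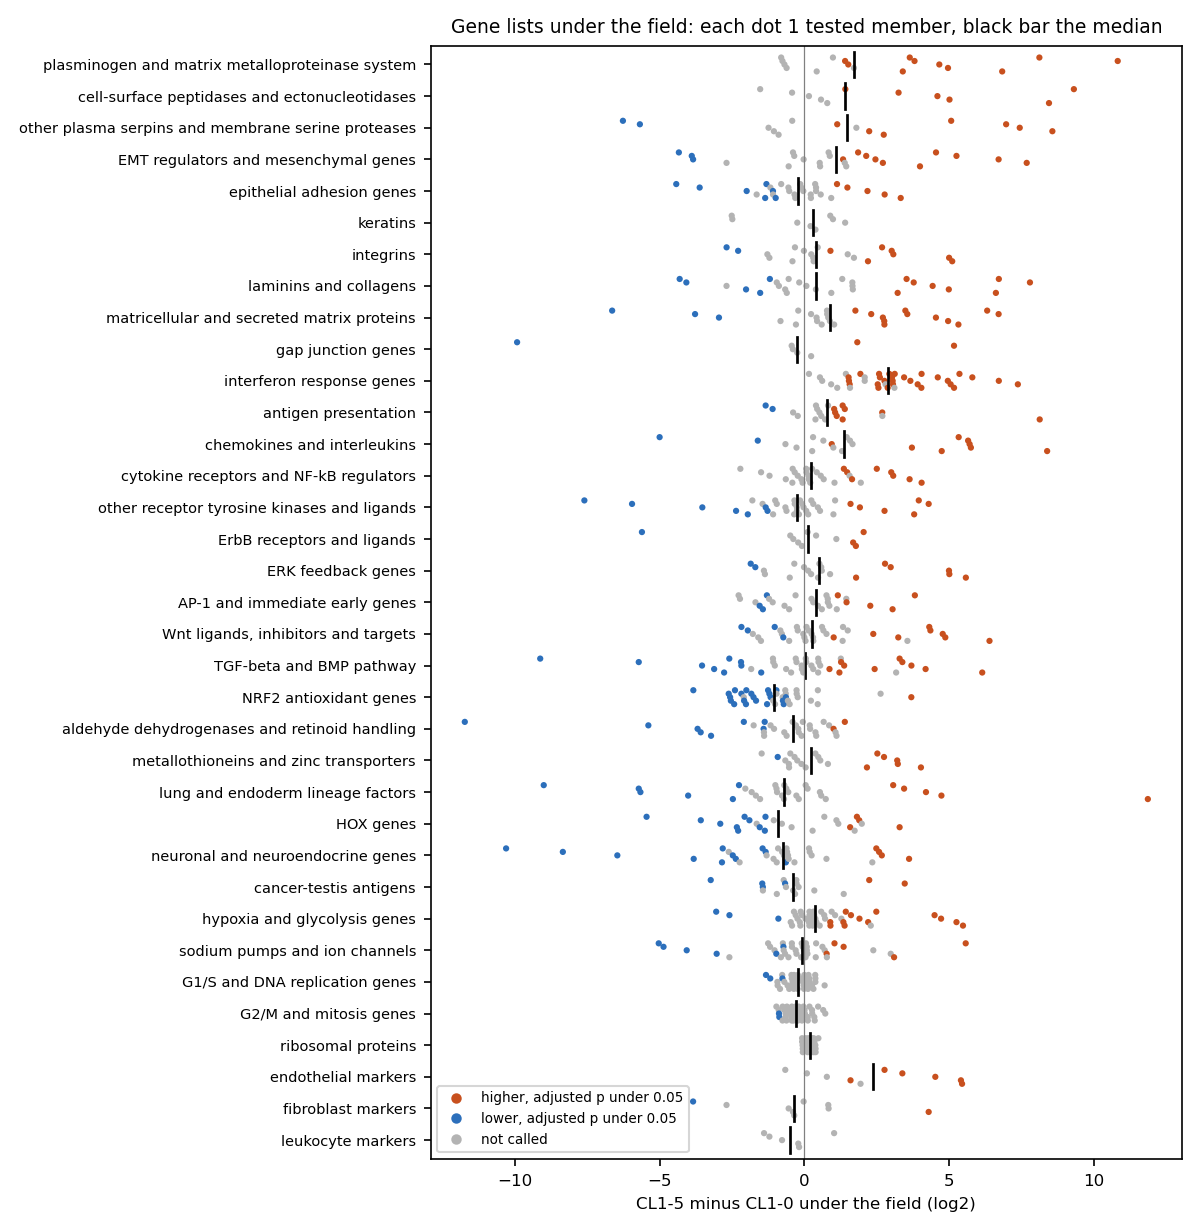
Difference between the lines under the field (log2, CL1-5 minus CL1-0) for each tested member of 35 gene lists; orange and blue dots are called higher and lower, grey dots not called, and black bars list medians. Interferon response genes lie to the right as a body (median 2.88) and NRF2 antioxidant genes to the left (median −1.04), while ribosomal protein genes sit close to 0.

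Genes of the interferon response were higher in CL1-5. Interferons act through their receptors on transcription factors that bind the interferon-stimulated response element (ISRE) in the promoters of antiviral genes. Promoters of called members are shown because they carry this element. The core searched for was GAAANNGAAA on either strand, and matches may overlap one another. Sequences are RefSeq's, build GRCh38.p14, on the strand of the gene, from the 300 bases around each start of transcription (250 before, 50 after), with matches in capitals.

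IFIT1 (chr10:89392495-89392541, plus strand): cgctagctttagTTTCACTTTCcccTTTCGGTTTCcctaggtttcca
IFIT3 (chr10:89327829-89327896, plus strand): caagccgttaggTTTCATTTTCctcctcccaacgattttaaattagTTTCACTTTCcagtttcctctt
IFI27 (chr14:94110616-94110662, plus strand): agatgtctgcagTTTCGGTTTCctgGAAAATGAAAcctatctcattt
ISG15 (chr1:1013372-1013411, plus strand): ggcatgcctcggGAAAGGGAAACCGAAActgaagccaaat
DDX60 (chr4:168318784-168318852, minus strand): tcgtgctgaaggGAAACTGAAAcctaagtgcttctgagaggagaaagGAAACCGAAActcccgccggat

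Each of these 5 windows holds 2 matches, which in ISG15 overlap. Of 42 interferon response genes 34 had a promoter entry, and 25 of these (73.5%) held the core, against 3.65% of all 27305 promoters and 2.69% of the 11163 of tested genes. Among the 23 called members with an entry 18 held it and 5 did not. A match describes the letters and is no evidence of binding.

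Of the 42 genes 39 were tested, and 28 were higher and 0 lower, with a median of 2.88. All 3 CL1-5 arrays lay above all CL1-0 arrays in 36 of 39, against 16.8% of all genes. Leaving out any 1 array left 21 to 27 called higher and 0 lower. IFIT1, which binds foreign RNA caps, was at 5.04, 6.86 and 7.74 in CL1-0 against 10.59, 11.6 and 12.98 in CL1-5. IFIT3, its partner, was at 4.96, 6.56 and 5.87 against 11.12, 12.84 and 13.59. In both genes replicate 1 was the lowest array of each line, and the lines did not overlap. MX1, an antiviral GTPase, was at 0.86, 1.32 and 5.39 against 10.43, 8.74 and 10.54, at least 14.5-fold higher. OAS1, which makes the activator of RNase L, was higher by 5.06 ± 1.18 (adjusted p = 0.0106), and RIGI, a sensor of viral RNA, by 3.45 ± 0.41 (adjusted p = 0.000125). ISG15, the ubiquitin-like modifier, was well above the median in both lines, at 11.13, 11.98 and 12.01 against 13.93, 14.19 and 14.63.

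**Figure D3:**
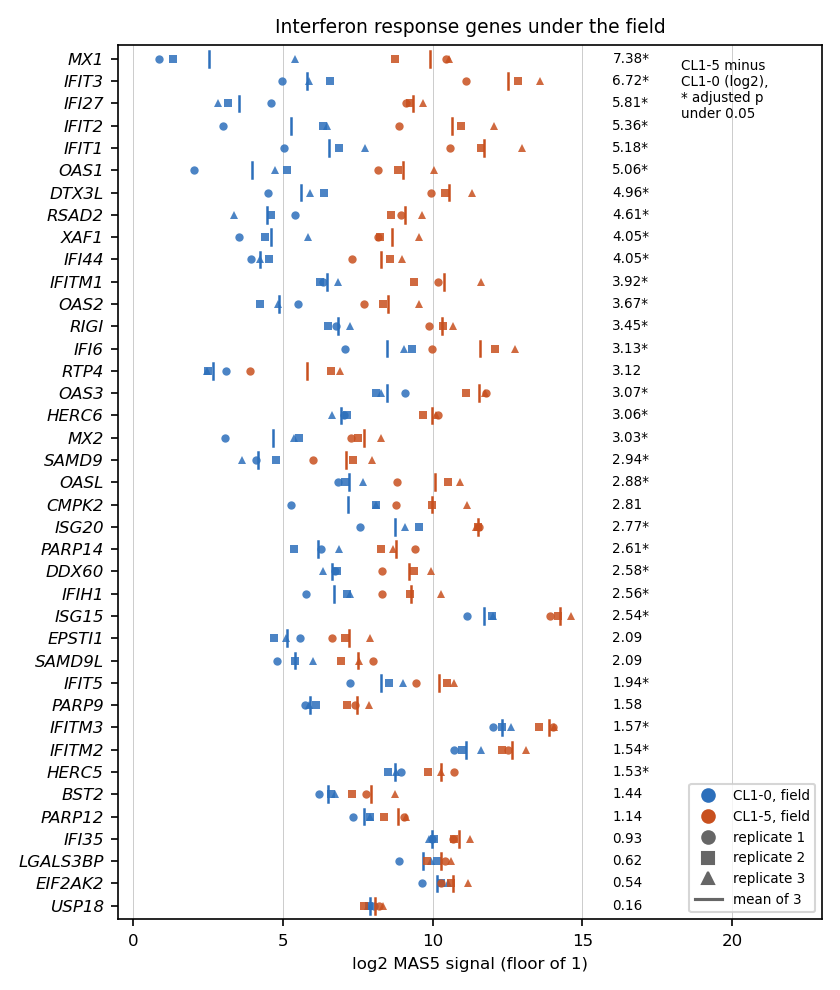
Log2 signal of the 39 tested interferon response genes on the 6 arrays under the field, ordered by the difference between the lines printed at the right (an asterisk marks an adjusted p under 0.05); blue is CL1-0 and orange CL1-5. The differences run from 7.38 for MX1 down to 0.16 for USP18, and 28 of 39 are called.

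Of single interferon genes outside that list, chosen after their values were seen, IRF7, which drives interferon transcription, was at 7.17, 7.34 and 6.73 in CL1-0 against 9.69, 8.97 and 9.92 in CL1-5. IRF9, a factor of the interferon response, was at 9.14, 8.02 and 8.82 against 11.97, 10.71 and 11.82, and IFNLR1, the receptor of type III interferons, at 5.36, 5.53 and 7.13 against 8.17, 8.23 and 8.2. In all 3 genes the lines did not overlap, as in 35.8% of all genes. Of 24 tested interferon receptors, IRF and STAT factors only 3 were higher and 0 lower. That is 12.5% called, against 19.4% of all genes. The interferons themselves were near background: 9 of 10 interferon genes on the array did not pass the filter and lay under the median on all 6 arrays. The tenth, IFNL1, was at 7.06, 6.51 and 7.21 in CL1-0 against 2.34, 5.7 and 6.21 in CL1-5 (adjusted p = 0.108, and 0.0464 with the replicate block). Of 20 antigen presentation genes 8 were higher and 2 lower, and 0 or 1 lower when any 1 of the 6 arrays was left out. PSMB8, an interferon-inducible proteasome subunit, was at 2, 1.7 and 3.44 against 10.07, 10.51 and 10.98. Its partner PSMB9 was higher by 2.69 ± 0.44, and B2M and HLA-E, chains of MHC class I, by 1.33 ± 0.19 and 1.33 ± 0.24 (adjusted p = 0.00111, 0.000414 and 0.00201).

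Inflammatory mediators that were called were mostly higher. Of 20 tested chemokines and interleukins 8 were higher and 2 lower. CXCL8 (interleukin 8), which attracts neutrophils, was at 4.29, 6.6 and 5.53 in CL1-0 against 13.69, 13.83 and 14.07 in CL1-5, at least 194-fold higher. IL6 was at 5.66, 5.46 and 5.88 against 12, 9.86 and 11.14, and IL1A and CXCL1 were at least 10-fold and 11.1-fold higher. The monocyte attractant CCL2 was lower, at 6.92, 8.41 and 6.78 against 4.87, 0.1 and 2.15. Among 30 tested cytokine receptors and NF-kB regulators 8 were higher and 0 lower, 5 were higher without replicate 1 or replicate 3 of CL1-5, 1 was lower without replicate 1 of CL1-5 and 2 were lower with the replicate block. NFKBIZ, a nuclear co-activator of NF-kB, was higher by 3.64 ± 0.37 (adjusted p = 3.85e-05), and OSMR, the oncostatin M receptor, by 1.65 ± 0.27 (adjusted p = 0.00111).

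Growth factor receptors and ligands differed in both directions. Of 37 tested receptor tyrosine kinase genes and ligands outside the ErbB family 6 were higher and 8 lower, 13 lower with the replicate block, and 3 of 26 higher under the stricter filter. AXL, the GAS6 receptor, was at 8.55, 8.03 and 8.39 in CL1-0 against 11.32, 12.4 and 12.65 in CL1-5, while FGFR3 was at 10.22, 10.62 and 11.38 against 7.8, 6.23 and 7.62. The fibroblast growth factors FGF1 and FGF2 ran in opposite directions, FGF1 at 4, 5.39 and 6.14 against 9.58, 8.71 and 9.12, and FGF2 at 12.08, 11.73 and 12.07 against 6.18, 6.14 and 5.71. KITLG, the ligand of KIT, was at 11.93, 12.39 and 12.73 against 2.67, 6.21 and 5.37, at least 74.6-fold lower. EGFR was at 9.19, 9.8 and 9.77 against 12.13, 11.06 and 11.73, higher by 2.05 ± 0.35 (adjusted p = 0.00162, and 0.143 when its probe sets were averaged).

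Genes of the ERK feedback list are induced by ERK signalling, and some of them restrain it. Of 20 tested, 6 were higher and 2 lower. The 2 became 1 when any CL1-0 array or replicate 3 of CL1-5 was left out, and 4 with the replicate block. DUSP5, a nuclear ERK phosphatase, was at 8.38, 9.04 and 7.99 in CL1-0 against 14.01, 13.02 and 13.41 in CL1-5, and IER3 at 9.88, 10.85 and 10.02 against 15.99, 14.79 and 14.98. DUSP4 and DUSP1 were higher by 5.58 ± 0.72 and 2.99 ± 0.22 (adjusted p = 0.000219 and 3.5e-06). Of 26 AP-1 and immediate early genes 5 were higher and 3 lower, 10 and 6 with the replicate block, and 1 lower when any CL1-0 array or replicate 2 of CL1-5 was left out. JUN, a subunit of AP-1, was at 8.71, 9.11 and 8.34 against 12.4, 12.49 and 12.74. In the Wnt list 8 of 35 were higher and 4 lower, the latter 2 without replicate 3 of CL1-0 or replicate 2 of CL1-5. Among the higher were CCND1 (cyclin D1) at 6.53, 7.91 and 6.38 against 11.73, 12.09 and 11.62 and the receptor FZD6, higher by 4.36 ± 0.31 (adjusted p = 2.99e-06). The secreted Wnt inhibitors SFRP1 and DKK3 were higher as well, by 4.78 ± 0.44 and 4.32 ± 0.43 (adjusted p = 1.8e-05 and 3.34e-05). Another secreted Wnt inhibitor, SOST, ran the other way, at least 63.9-fold lower in CL1-5. In the TGF-beta and BMP list 10 of 40 were higher and 9 lower. TGFBR2, the type II receptor, was higher by 3.70 ± 0.33 and INHBA, the activin A subunit, at least 10.5-fold, while ID2, a target of BMP signalling that blocks bHLH factors, was at 13.37, 13.02 and 12.96 against 6.7, 7.8 and 7.69 (adjusted p = 2.7e-07).

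Antioxidant genes were lower in CL1-5. NRF2, the product of NFE2L2, binds the antioxidant response element (ARE) and drives genes of glutathione synthesis, NADPH supply and conjugation. Of 38 tested genes 21 were lower and 1 higher, with a median of −1.04, and all CL1-5 arrays lay below all CL1-0 arrays in 25 of 38, against 19% of all genes. Leaving out any 1 array gave 17 to 25 lower, and 2 were higher without replicate 3 of CL1-0 or replicate 2 of CL1-5. NFE2L2 was at 13.84, 13.66 and 13.99 in CL1-0 against 11.68, 11.73 and 11.84 in CL1-5, lower by −2.08 ± 0.15 (adjusted p = 3.44e-06). HMOX1 (heme oxygenase 1) was at 13.04, 12.74 and 13.04 against 10.86, 10.97 and 10.99, and GCLC, which makes the precursor of glutathione, at 13.58, 13.13 and 13.31 against 11.58, 11.81 and 11.63. NQO1, a quinone reductase, was lower by −1.21 ± 0.14, glutathione reductase (GSR) by −2.39 ± 0.36 and EPHX1 by −2.61 ± 0.32 (adjusted p = 0.000106, 0.000701 and 0.000141). MGST1, a microsomal glutathione transferase, was the 1 higher member, at 7.35, 7.83 and 7.59 against 11.45, 11.12 and 11.3. The GSTM and AKR1C genes of this list have near-identical copies, and their probe sets may read more than 1 gene.

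The ARE core searched for was TGACNNNGC on either strand. Promoter windows of 2 lower members that hold it show its letters.

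PGD (chr1:10398851-10398883, plus strand): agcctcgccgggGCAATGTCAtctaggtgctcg
GSTP1 (chr11:67583734-67583766, plus strand): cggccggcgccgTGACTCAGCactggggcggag

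Of the 31 NRF2 list genes with a promoter entry 9 (29%) held the core, against 13.6% of all promoters and 15.3% of those of tested genes, and 5 of the 19 called members with an entry held it. PGD, of the pentose phosphate pathway, was at 13.95, 14.1 and 14.15 against 12.22, 12.22 and 12.27 (adjusted p = 7.43e-06, and 0.323 when its probe sets were averaged), and GSTP1 lower by −0.63 ± 0.14 (adjusted p = 0.00835).

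Of 31 tested aldehyde dehydrogenase and retinoid genes, ALDH1A1 among them, 8 were lower and 2 higher, with a median of −0.40, and 12 were lower with the replicate block. The 2 became 0 without CL1-0 replicate 1 or 2 or CL1-5 replicate 3 and 1 without replicate 3 of CL1-0 or replicate 2 of CL1-5. CYP26A1, which degrades retinoic acid and is induced by it, was at 11.15, 9.61 and 10.21 in CL1-0 against 5.84, 4.98 and 3.99 in CL1-5. The receptor RARB was at 10.17, 10.31 and 10.35 against 6.71, 6.72 and 6.65, lower by −3.58 ± 0.27 (adjusted p = 4.95e-06). RDH10, which oxidises retinol, and DHRS3, which runs the reverse step, were lower by −3.69 ± 0.45 and −3.22 ± 0.55 (adjusted p = 0.000147 and 0.00155). Metallothioneins, which bind zinc and copper, ran against the antioxidant genes above. The 6 called higher of 20 tested in their list were MT1E, MT1F, MT1G, MT1H, MT1X and MT2A. MT2A was at 10.56, 11.79 and 11.16 against 15.09, 13.86 and 14.27 and MT1X at 9.52, 10.99 and 11.03 against 14.23, 13.23 and 13.72. These genes are near-identical copies whose probe sets may share transcripts.

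In the list of lung and endoderm factors 5 of 30 were higher and 6 lower, and 3 were higher without replicate 1 of CL1-0 or replicate 3 of CL1-5. SOX2, a factor of stem cells and of airway epithelium, was at 13.11, 13.58 and 13.72 in CL1-0 against 4.79, 4.95 and 3.66 in CL1-5, at least 172-fold lower. SOX9, a factor of the distal lung bud, was at 7.39, 8.72 and 8.33 against 12.71, 11.87 and 12.48. FOXA1, a pioneer factor of endoderm, was at 10.33, 10.63 and 11.37 against 4.93, 5.46 and 4.96, and its relative FOXA2 at 4.55, 3.67 and 3.07 against 9.32, 8.14 and 8.05. NR2F1, a nuclear receptor, was at least 113-fold lower, and the Wnt inhibitor SOST and the secreted peptide APELA at least 63.9-fold and 6.38-fold.

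HOX genes, which record position along the body axis, were called in 14 of 24 cases, 4 higher and 10 lower, with a median of −0.91, and 7 were higher when low values were raised to the array median. HOXA2 was at 10.33, 10.13 and 10.45 in CL1-0 against 5.57, 4.68 and 4.3 in CL1-5, and HOXC6 lower by −2.90 ± 0.27 (adjusted p = 1.75e-05), while HOXD10 was at 5.53, 5.55 and 6.44 against 9.35, 9.05 and 9.01. Of 34 neuronal and neuroendocrine genes 11 were lower and 4 higher, and 2 higher without replicate 2 of CL1-0 or replicate 3 of CL1-5. The neurofilament NEFH was at 11.62, 12.45 and 12.05 against 2.59, 4.01 and 4.5, at least 63.9-fold lower, and the neuropeptide precursor NTS at 10.28, 9.11 and 9.11 against 4.83, 3.22 and 1.07. SCG2, a granin of secretory granules, ran the other way, at least 5.68-fold higher.

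Marker genes of other cell types were looked at in the same arrays. Of 15 endothelial genes 10 were tested, and 6 of these were higher in CL1-5 and 0 lower, among them TIE1 at 1.35, 5.14 and 2.46 in CL1-0 against 8.5, 8.63 and 8.18 in CL1-5, ESAM (3.24 against 8.65) and CLDN5 (4.40 against 8.93). The signals of all 15 summed to 929 to 1154 on the CL1-0 arrays and 2382 to 4529 on the CL1-5 arrays. The other members called were ENG (4.56 against 7.95), FLT1 (5.24 against 8.02) and KDR (5.47 against 7.07). The call of FLT1 (adjusted p = 0.0261) was lost without replicate 1 or 3 of CL1-0 or replicate 2 or 3 of CL1-5 (adjusted p from 0.051 to 0.0972), and that of KDR (adjusted p = 0.0434) without any 1 array but replicate 2 of CL1-0 (adjusted p from 0.0639 to 0.135), as in 6 other settings, quantile normalization among them (adjusted p from 0.0509 to 0.0858). PECAM1 averaged 6.90 and 8.84 (adjusted p = 0.0946, and 0.0037 with the replicate block, where 7 members were higher). Another of its probe sets, taken when low values were raised to the array median, differed by 3.88 (adjusted p = 2.76e-06). With its probe sets averaged the difference was 4.16 (adjusted p = 0.000134). The remaining tested members were not called: ERG averaged 6.64 in CL1-0 and 5.98 in CL1-5, EGFL7 8.93 and 9.02, and ROBO4 5.42 and 6.21. CDH5, VWF, TEK, EMCN and PLVAP did not pass the filter and lay under the median on all 6 arrays, CDH5 at 2.29 in CL1-0 and 2.94 in CL1-5. Of 9 tested fibroblast genes 1 was higher (PDGFRA, at least 2.16-fold) and 1 lower (POSTN), or 2 and 2 with the replicate block, and the summed signals overlapped, at 1141 to 2110 and 1344 to 1809. None of 6 tested leukocyte genes was called, and PTPRC, which marks all leukocytes, was under the median. Surface proteins with roles in clotting differed by large amounts: thrombomodulin (THBD) at 5.3, 5.29 and 4.92 against 14.21, 13.2 and 14.05, at least 219-fold higher, and tissue factor (F3), higher by 6.24 ± 0.47 (adjusted p = 4.46e-06), while the inhibitor TFPI2 was at least 24.5-fold lower.

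None of 31 ribosomal protein genes was called by limma (median 0.20), and 1 was higher with the replicate block. Of 39 G1/S and DNA replication genes 3 were lower and 0 higher, and of 43 G2/M and mitosis genes 2 were lower and 0 higher, under the 9.63% and 9.81% of all genes. With the replicate block 13 of 39 and 12 of 43 were lower, against 20.8% of all genes, and 0 and 2 were higher. Without replicate 2 of CL1-5, and with no block, 5 G1/S and 6 G2/M genes were lower. Of the G1/S genes 1 was lower without replicate 1 of CL1-0 or replicate 3 of CL1-5, and of the G2/M genes 0 without any other single array, while 3 G2/M genes were higher without replicate 3 of CL1-5. Medians were −0.23 and −0.30. Of 45 hypoxia and glycolysis genes 13 were higher and 3 lower, with 22 higher under the replicate block and 8 without replicate 3 of CL1-5. NDRG1 was at 9.17, 9.11 and 9.08 in CL1-0 against 15.59, 13.8 and 14.41 in CL1-5, EPAS1, a hypoxia-inducible factor, at 8.63, 9.56 and 9.07 against 14.24, 13.12 and 13.41, and in both replicate 1 was the highest CL1-5 array. SLC2A3, a glucose transporter, was lower by −3.04 ± 0.39 (adjusted p = 0.000211). Among ion channels the calcium-activated potassium channels KCNMA1 and KCNN4 were higher, KCNMA1 at 4.15, 4.15 and 6.64 against 10.14, 10.58 and 10.97 and KCNN4 by 3.10 ± 0.38 (adjusted p = 0.000137), while the voltage-gated KCNH2 was lower by −3.03 ± 0.32 (adjusted p = 4.74e-05). In that list 5 of 41 were higher and 6 lower, 26.8% called against 19.4% of all genes, with a median of −0.09. Only 3 were lower without replicate 3 of CL1-0 or with low values raised to the median. With the replicate block 8 were higher, against 17.3% of all genes.

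The difference between the lines under the field was set against that without the field, measured on 6 other arrays. Without the field 1253 genes were higher (9.03%) and 1239 lower (8.93%), and the replicate block raised their sum from 2492 to 4926. Of all genes 1033 were higher and 955 lower in both settings and 0 were called in opposite directions, which is 73.7% of the calls under the field and 79.8% of those without. A further 711 genes were called under the field only, 697 of them with the same sign without it, and 504 without the field only, 495 with the same sign under it. To ask whether a difference changed with the field, the difference of the differences was tested. With limma it passed for 0 of 13882 genes (0%), where 150 had an unadjusted p under 0.05 and the smallest adjusted p was 0.9999. With the replicate block it also passed for 0, with 638 at an unadjusted p under 0.05. The genes called under the field only are therefore not shown to differ between settings.

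**Figure D4:**
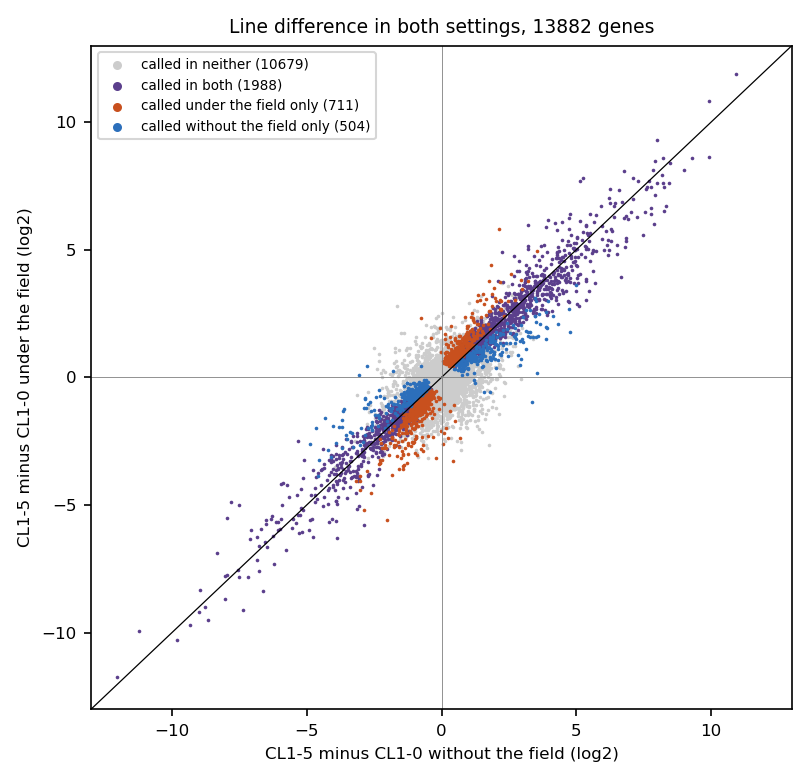
Difference between the lines under the field (vertical) against that without it (horizontal), both log2 of CL1-5 over CL1-0, for 13882 genes coloured by where they were called; the diagonal marks equal differences. The 1033 higher and 955 lower genes called in both settings lie along the diagonal, and the 711 and 504 called in 1 setting lie mostly closer to the origin, on the same side of 0 with few exceptions.

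Among the genes called under the field only, CD93, a receptor of endothelial and myeloid cells, was at 4.54, 2.99 and 5.45 against 7.92, 8.2 and 8.14, higher by 3.76 ± 0.57 (adjusted p = 0.000693), and by 1.77 without the field (adjusted p = 0.052). PDGFB, a platelet-derived growth factor, was higher by 1.92 ± 0.31 and by 0.93, GPAT3, which starts triglyceride synthesis, lower by −1.86 ± 0.31 and −0.71, and the splicing factor IK higher by 1.18 ± 0.20 and 0.58. Without the field only, WWC3, a member of the Hippo pathway's WWC family, was called at 2.85 against 0.88 under it. Genes with the smallest p of the change included SPINT2, lower by −5.68 ± 0.32 under the field and −4.18 without, and ZNF300, by −6.31 ± 0.51 and −3.87, but in both CL1-5 lay under its array median. IFI27, an interferon gene, was higher by 5.81 ± 1.25 under the field (adjusted p = 0.00665) and by 2.13 without it (adjusted p = 0.3). Its change did not pass either.

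Called genes were not spread evenly over the chromosomes, as assigned by RefSeq for 13846 genes. Chromosome 7 held 28 higher and 163 lower of 661 genes (24.7% lower against 9.64% of all), with a median of −0.57 and 77.8% of its genes below 0. The X chromosome held 20 higher and 112 lower of 447 (25.1%), with a median of −0.53. Chromosomes 4 and 17 had medians of −0.35 and −0.26, and chromosomes 6, 3 and 14 of 0.133, 0.097 and 0.095. The arrays without the field gave much the same, with 28 higher and 147 lower and a median of −0.49 on chromosome 7 and 22 and 100 and −0.47 on X. Without replicate 3 of CL1-0 the lower genes on chromosome 7 were 92, without its replicate 2 they were 101 and without replicate 3 of CL1-5 109, while with the replicate block they were 310. On X they were 68 and 69 without replicates 2 and 3 of CL1-0, and 191 with the block. The medians moved less, from −0.61 to −0.48 on chromosome 7 over all settings.

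In gene order, every one of 13 blocks of about 50 tested genes on chromosome 7 had a median below 0, from −0.79 to −0.25. On chromosome 4 the low medians were in the first 4 of 10 blocks (−0.93 to −0.59), and from the fifth block on they lay between −0.47 and −0.03. On X the first block had a median of −0.03 and the last 4 of 8 had −0.99 to −0.67. On chromosome 17 the last of 16 blocks was the lowest, at −0.81. EGFR, on chromosome 7, was higher in CL1-5 as given above. What underlies these runs was not tested.

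**Figure D5:**
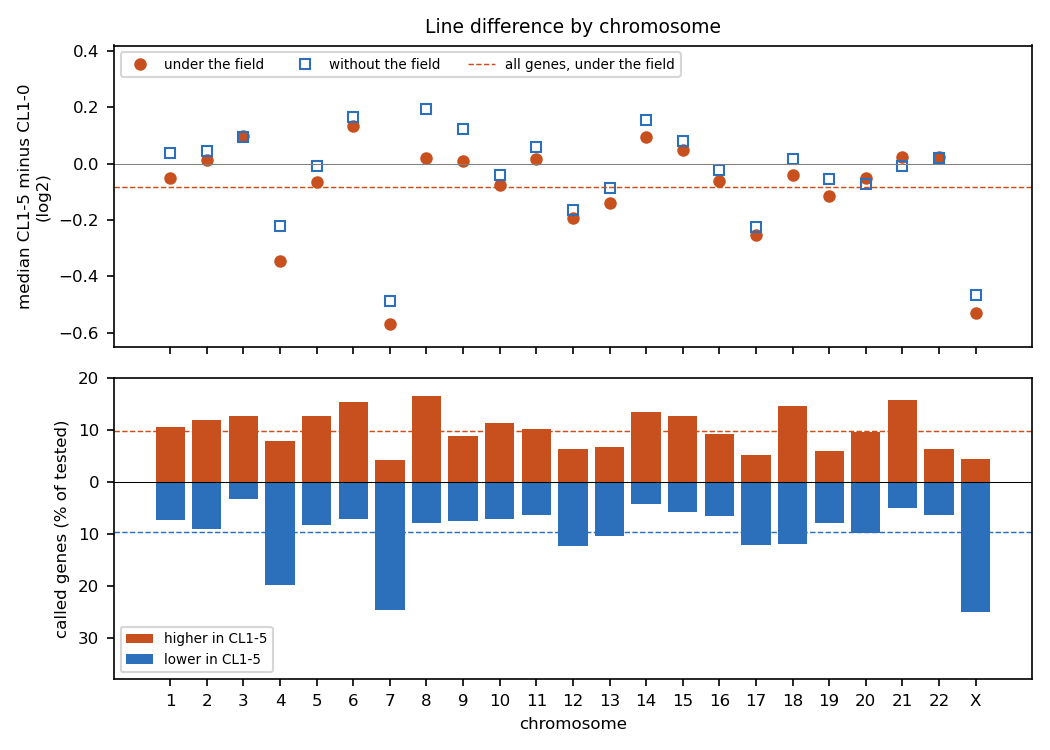
Upper plot: median difference between the lines by chromosome, under the field (orange) and without it (blue squares), with the median of all genes dashed. Lower plot: called genes as a percentage of those tested, higher above and lower below 0; chromosome 7 and X have medians of −0.57 and −0.53 and 24.7% and 25.1% of their genes lower.

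Some called genes were neighbours. On chromosome 9, CDKN2A, which encodes the cell cycle inhibitors p16 and p14ARF, was at 10.87, 11.63 and 11.63 in CL1-0 against 3.89, 6.14 and 6.13 in CL1-5, lower by −5.99 ± 0.53 (adjusted p = 1.3e-05). KLHL9, an adaptor of a ubiquitin ligase in the same region, was at 9.75, 10.78 and 10.8 against 4.54, 1.08 and 2.22, at least 21.2-fold lower. Between them lies MTAP, of the methionine salvage pathway, which was lower by −3.32 ± 0.67 (adjusted p = 0.00446). Another of its probe sets had the highest mean when replicate 1, 2 or 3 of CL1-0 was left out, and that one differed by −1.08, −1.21 and −1.23 and was not called (adjusted p = 0.157, 0.133 and 0.125). The same probe set was taken after quantile normalization (−1.18, adjusted p = 0.0698), and with the probe sets averaged the difference was −4.17 (adjusted p = 0.000111). CDKN2B was not called (−1.96 ± 0.91, adjusted p = 0.164), but was without the field (adjusted p = 0.012). FOCAD on one side and TUSC1 on the other differed by 0.24 ± 0.26 and 0.35 ± 0.26 (adjusted p = 0.583 and 0.404), TUSC1 being called on replicates 2 and 3 alone (0.46, adjusted p = 0.0441). ELAVL2, also on chromosome 9, was lower by −2.47 ± 0.62 (adjusted p = 0.0157). It averaged only 6.35 in CL1-0, so its bound was at least 1.25-fold. Its call was lost with low values raised to the median (adjusted p = 0.355) and without replicate 3 of CL1-0 (0.0713). Without the field KLHL9 and CDKN2A were lower by −7.20 and −4.91. Runs of neighbouring tested genes called in one direction included MT2A to MT1X on chromosome 16 (6 higher), IFIT2, IFIT3, IFIT1 and IFIT5 on chromosome 10 (4 higher), HOXC10 to HOXC4 on chromosome 12 (5 lower) and FGFR3 to NAT8L on chromosome 4 (5 lower). The call of IFIT5 ended when replicate 1 of CL1-0 (adjusted p = 0.121), its replicate 2 (0.0667), replicate 2 of CL1-5 (0.0954) or its replicate 3 (0.116) was left out.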

How the data were processed

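The values are linear array intensities deposited by the authors and made with MAS5, per the submitters' processing notes. The MAS5 version is not given in the sources used here, and no detection calls were used. Arrays were not rescaled, since their means, trimmed by 2% at either end, lay between 500.07 and 500.08. Values under 1 were set to 1 and taken to log2. Of 54675 probe sets, 62 of them controls, 41091 carried a single symbol in GEO's platform annotation and were used, while 1801 had several and 11777 none. A gene is its probe set with the highest mean, kept where it exceeded the array's median on at least 3 of 12 arrays. The means of the 4 groups were fitted to all 12 arrays in R 4.3.3 by limma's lmFit and trended eBayes (limma 3.58.1, with data.table at version 1.17.8), with Benjamini-Hochberg adjustment at 0.05. The fit was tested on simulated data.

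The labels do not say whether replicate numbers pair the cultures. Under the field, the deviations of same-numbered arrays of the 2 lines from their group means correlated at 0.424, 0.253 and 0.245 and those of other numbers at most at 0.193. All 3 exceed 0.1, but so did replicates 2 and 3 across numbers (0.193 and 0.185). The main fit did not pair the arrays, and the number enters only as a block in an alternative fit. Replicate 1 also lacked the spike-in, and pairing and this batch cannot be told apart. The fit with the number as a block is given beside results whose call it changed or whose count it moved by over 1.5 times, and for all genes it called more in both directions.

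The 55 gene lists and the genes were chosen with earlier results of these data known. The genes named are the 20 with the largest difference in each direction among called genes without overlap, up to 6 called members of a list or its 2 smallest p, the 10 smallest p of the change with the field, 5 genes called in 1 setting only for each setting, and CDH1, EPCAM, VIM, EGFR, NKX2-1, KRT18, SOX2 and PLAU. Only some of these are printed, and members named beyond that rule, such as ISG15, the marker genes and those of chromosome 9, were chosen after their values were seen. The alternatives were quantile normalization, centring of arrays on the median, values under the array median raised to it, a pseudocount of 5.05 (the 10th percentile), a filter at the 60th percentile on 6 arrays or none, averaged probe sets, untrended eBayes, only the 6 arrays under the field, the replicate block with all or those 6 arrays, only replicates 2 and 3, and leaving out each of the 6 arrays. Leaving out replicate 1 of CL1-5 with the block was added after seeing the data. Promoters were read from RefSeq (GRCh38.p14). Results of some listed genes are not reported here.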

Additional observations from a re-analysis of the deposited data

Results flagged for a closer look

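In 5 genes the lines differed in one direction in all 3 same-numbered pairs of arrays under the field and in the other direction in all 3 without it. For each the change of the difference with the field was tested with limma and did not pass (adjusted p = 0.9999, 0 of 13882 genes called). They were noticed among the genes picked for a small p of this change, so such opposite signs were likely to be found there. KCNQ1, a voltage-gated potassium channel, had CL1-5 above CL1-0 by 0.97 to 2.42 under the field and below it without (−2.72 to −0.56), a change of 3.14. Under the field all 3 CL1-0 arrays lay under their median, and raising low values to it cut the difference from 1.73 to 0.70. The −2.72 came from replicate 3 of CL1-5 without the field, at 3.67. PLD1, a phospholipase, was above by 0.44 to 2.26 and below without the field (−1.01 to −0.59), a change of 1.92. PIAS2, a SUMO ligase, was above by 0.35 to 0.49 and below (−0.81 to −0.65), a change of 1.18, and its difference under the field turned to −0.41 when its probe sets were averaged. NECTIN1, an adhesion molecule, was below under the field (−1.31 to −0.81) and above by 0.22 to 0.62 without it, a change of −1.54. Its difference under the field shrank to −0.38 when its probe sets were averaged (adjusted p = 0.635). LINC00520, a long non-coding RNA, was at −0.34 to −0.01 under the field and above by 0.97 to 1.56 without it, a change of −1.31.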

How the results depend on the processing

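Over 19 alternatives, the number of genes differing between the lines under the field stayed within 1.5 times of 2699 except with the replicate block (5289), with it on the 6 arrays under the field (4296), on replicates 2 and 3 of every group (4460), and, chosen after seeing the data, without replicate 1 of CL1-5 with the block (4926). Genes higher in CL1-5 (1362) were 2408 with the block, 2076 on replicates 2 and 3 and 2261 in the added setting. Genes lower (1337) were 2881, 2384 and 2665 there, and 2272 with the block on 6 arrays. Leaving out each of the 6 arrays gave 1847 to 2347 in all, 972 to 1182 higher and 808 to 1165 lower. Without the field, 2492 became 4926 with the replicate block, 4319 on replicates 2 and 3 and 5600 in the added setting. The change with the field was called for 0 genes in each setting it was run in. Of 207 genes examined 180 were called, of which 166 were tested in every setting and 158 called in every setting. The other 14 did not pass the filter of at least 1 setting, and 9 of them were called wherever they were tested. Differences changed sign in ERBB4 (0.49 with no filter, where another of its probe sets was taken), KRT18 (−0.19 on replicates 2 and 3), PIAS2 (−0.41 with averaged probe sets) and PLAAT5 (−0.09 without replicate 2 of CL1-5, to 0.45 without its replicate 1), none of which passed there (adjusted p = 0.682, 0.583, 0.193 and 0.957), and for the other 3 the cause was not tested. The arrays number 3 a group, and signals near the array median do not order reliably.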
